A study of Mus musculus with 10 samples.

Results

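Grb10, Gnas, H13 and Ppp1r9a are 4 imprinted mouse genes whose maternal expression depends on the tissue or on the transcript. They were followed through every probe that the platform's annotation pairs with their symbols, each probe being read separately. There were 10 such probes among 25697 on the array: 1 for Grb10, 4 for Gnas, 4 for H13 and 1 for Ppp1r9a. Of these, 7 were detected on both arrays of at least 1 group and were kept for testing (2 of Gnas, 3 of H13, 1 each of the others), as were 13564 probes in all (52.8%). The rule uses gene symbols and no measured value, but earlier results of these arrays were known when the genes were chosen.

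Imprinted genes carry a mark, usually DNA methylation set in the egg or the sperm, by which 1 parental copy is silenced. Grb10 encodes an adaptor that binds the insulin and insulin-like growth factor receptors and restrains their signal; in the mouse it is expressed from the maternal copy in most tissues and from the paternal copy, through another start site, in neurons. Gnas encodes the alpha subunit of the stimulatory G protein, which couples hormone receptors to adenylyl cyclase. Its locus has several first exons, some used on the maternal and some on the paternal copy, while the transcript of the alpha subunit itself comes from both copies in most mouse tissues and mainly from the maternal copy in a few. H13 encodes signal peptide peptidase, a protease that cuts left-over signal peptides inside the membrane of the endoplasmic reticulum; an intron of the mouse gene holds a paternally expressed retrogene, Mcts2, and transcripts of the maternal and the paternal copy end at different sites. Ppp1r9a encodes neurabin, a scaffold of dendritic spines that binds actin and protein phosphatase 1, and its maternal bias in the mouse is known from extraembryonic tissues, whereas both copies are used in brain.

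The arrays covered 5 mouse cell populations, each hybridised in duplicate. The neural stem cells were of female origin (fNSC) or parthenogenetic (pNSC), that is, from embryos without a sperm, so that every chromosome is maternal. Parthenogenetic neural stem cells that overexpressed Oct4 and Klf4 had given rise to the induced pluripotent cells (piPS-2F). The embryonic stem cells were parthenogenetic and had been sorted on SSEA-1, a surface antigen (pESC-B), or female and labelled OG2 (fESC, the name in the descriptions; the titles read fESC-B). The labels mention sorting for pESC-B alone. The labels give no strain, passage, clone number or feeder layer, and 1 label of the second piPS-2F array names Klf5 in place of Klf4. Each population is a single line read on duplicate arrays that may be technical, so the p-values measure only the spread between duplicates. No array reads the 2 parental copies apart: each value is the sum of both.

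Between 38.7% and 46.1% of the probes were detected per array, and duplicates correlated at 0.988 to 0.995 over the kept probes, which are not independent. Of 10 pluripotency markers, 10 were detected in each of piPS-2F, pESC-B and fESC and 2 in each neural line; of 9 neural stem cell markers with a probe, 8 were detected in the neural lines and 3 in the pluripotent ones, and Pax6 in neither. Mean intensity was 287 to 327 where piPS-2F or pESC-B was hybridised and 476 to 625 elsewhere, so brightness and population cannot be told apart wherever the former are set against the latter. The summed signal of 8 fibroblast markers was 4507 to 5853 in piPS-2F, 2421 to 2444 in pESC-B, 4950 to 5496 in fESC, 987 to 1039 in pNSC and 207 to 238 in fNSC, with Col1a2, Pdgfrb and Postn undetected in all 5. The part of such cells in the results below was not tested.

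All 4 genes were found in RefSeq's promoter table (GRCm38.p6), which holds 250 bases before and 50 after each annotated start. Grb10 lies at chr11:11930499-12037428, Gnas at chr2:174284320-174346744, H13 at chr2:152669422-152708668 and Ppp1r9a at chr6:4902872-5165661. The windows follow the promoter table's own starts, which for Grb10, H13 and Ppp1r9a are not the 5′ ends of these spans. The windows of Grb10 and Gnas are shown because these genes have starts with different imprints, and the start regions are where imprinting marks, methyl groups on cytosines followed by guanine (CG), can sit. Each is written 5′ to 3′ on the strand of the gene, with every CG in capitals.
Grb10 first window (chr11:12037371-12037670, minus strand): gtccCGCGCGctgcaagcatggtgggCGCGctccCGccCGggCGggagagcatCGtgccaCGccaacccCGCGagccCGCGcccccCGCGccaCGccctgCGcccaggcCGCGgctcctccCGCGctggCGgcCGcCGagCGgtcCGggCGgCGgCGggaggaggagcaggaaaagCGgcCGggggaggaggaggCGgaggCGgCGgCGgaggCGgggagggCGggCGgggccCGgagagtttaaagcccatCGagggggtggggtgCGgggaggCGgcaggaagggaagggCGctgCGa
Grb10 second window (chr11:12027922-12028221, minus strand): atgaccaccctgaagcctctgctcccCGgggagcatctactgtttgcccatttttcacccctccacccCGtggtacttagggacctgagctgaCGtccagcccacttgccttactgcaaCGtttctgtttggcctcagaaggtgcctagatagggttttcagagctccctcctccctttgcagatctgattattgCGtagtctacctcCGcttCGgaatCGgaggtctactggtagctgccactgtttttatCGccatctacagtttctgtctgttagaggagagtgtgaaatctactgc
Gnas first window (chr2:174284070-174284369, plus strand): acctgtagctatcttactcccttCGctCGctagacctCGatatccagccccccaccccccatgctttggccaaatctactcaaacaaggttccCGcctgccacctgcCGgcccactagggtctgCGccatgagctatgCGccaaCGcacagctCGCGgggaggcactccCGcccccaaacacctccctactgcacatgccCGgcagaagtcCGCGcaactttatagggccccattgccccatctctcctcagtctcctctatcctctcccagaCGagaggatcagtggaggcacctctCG
Gnas second window (chr2:174327499-174327798, plus strand): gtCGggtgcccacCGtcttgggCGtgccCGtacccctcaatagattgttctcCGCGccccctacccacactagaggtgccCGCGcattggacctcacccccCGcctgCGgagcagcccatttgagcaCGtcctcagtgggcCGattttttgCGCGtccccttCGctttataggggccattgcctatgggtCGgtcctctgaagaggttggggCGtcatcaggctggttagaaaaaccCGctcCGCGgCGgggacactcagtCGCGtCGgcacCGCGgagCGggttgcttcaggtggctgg
Gnas last window (chr2:174329756-174330055, plus strand): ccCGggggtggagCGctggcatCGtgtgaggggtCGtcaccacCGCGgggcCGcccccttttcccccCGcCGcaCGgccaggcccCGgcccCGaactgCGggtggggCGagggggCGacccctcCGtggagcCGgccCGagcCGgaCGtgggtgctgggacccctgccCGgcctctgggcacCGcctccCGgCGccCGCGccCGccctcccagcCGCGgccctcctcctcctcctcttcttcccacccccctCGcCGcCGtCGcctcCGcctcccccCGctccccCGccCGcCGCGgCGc

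CG was counted on the strand shown, which gives the same count on the other strand. The first Grb10 window holds 45 CG, a number reached by 1.93% of all 32851 windows of this length, and the second holds 9, reached by 45.8%. The median window holds 7. The Gnas windows hold 16, 27 and 40 CG, reached by 33%, 15.5% and 3.91% of windows. A further Gnas window in the table overlaps the second by 281 bases and is not shown. H13 has 1 window (chr2:152669211-152669510) with 21 CG, reached by 24.8%. Ppp1r9a has 2, at chr6:4902725-4903024 with 10 CG and at chr6:4903061-4903360 with 48, the latter number reached by 1.22% of windows. The counts describe the sequence alone, and methylation was not measured.

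Probe intensities are linear and have background already subtracted, so they can fall below 0. For testing they were corrected for background, quantile normalized and put on a log2 scale, called the log2 signal here. A probe was called detected at a detection p under 0.01. Levels were compared between populations for a given probe, never between probes, because probes differ in how brightly they bind. Fewer cells of a type and less RNA per cell cannot be told apart in such bulk samples.

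**Figure D1:**
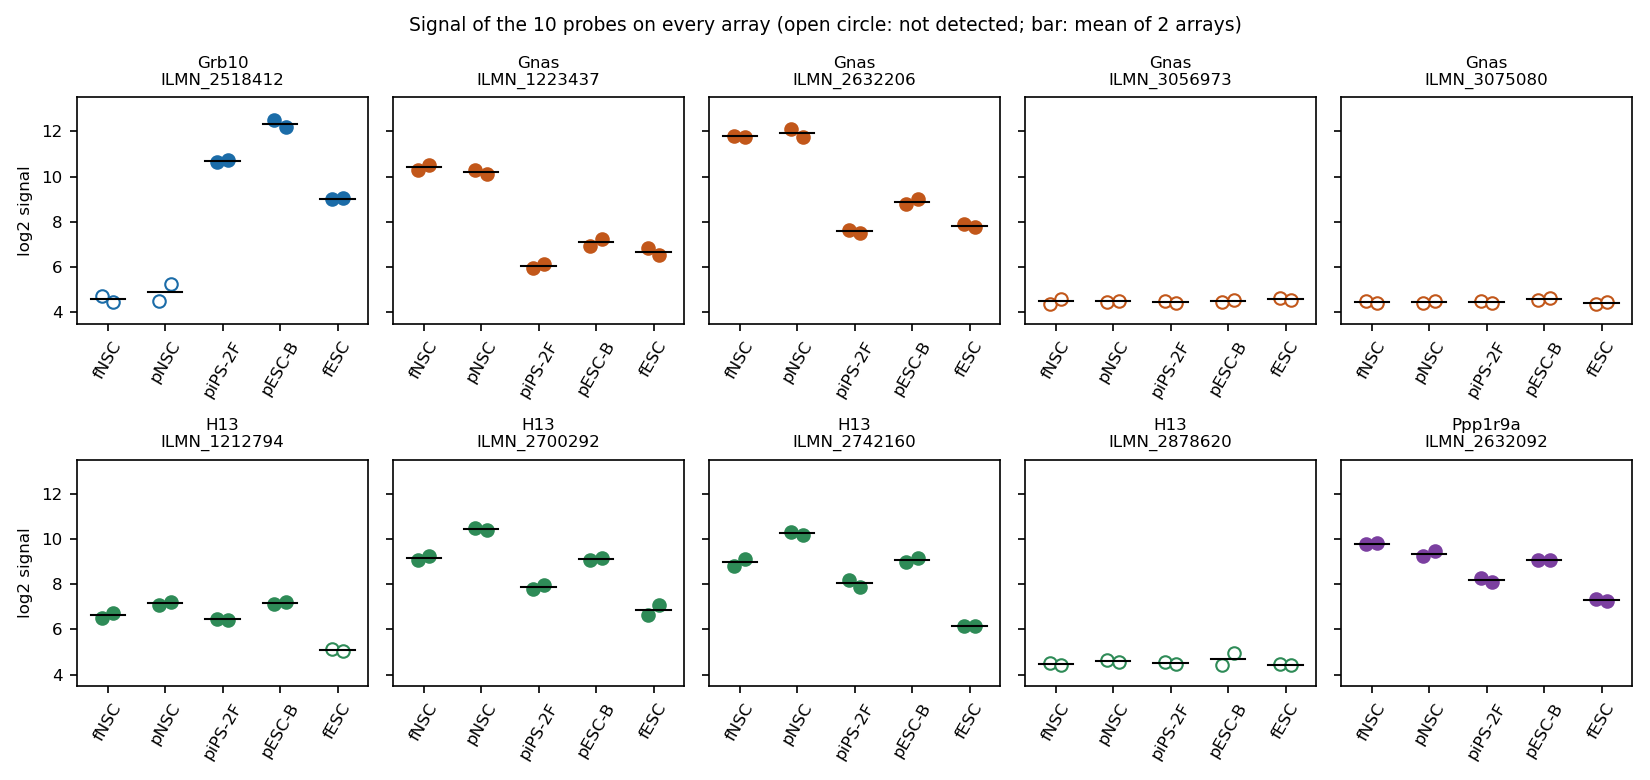
Log2 signal (vertical axis) of each of the 10 probes on every array, by cell population (horizontal axis). Filled circles are detected arrays, open circles are not, and bars are means of 2 arrays. Grb10 is detected in the 3 pluripotent lines only, the 2 kept Gnas probes are highest in the neural lines, and 3 probes are open throughout.

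The single Grb10 probe (ILMN_2518412) was detected in the 3 pluripotent lines and in neither neural line. Its intensity was 4335 and 3056 on the arrays of pESC-B, 1016 and 1059 in piPS-2F and 468 and 474 in fESC. It was 7.84 and -4.32 in fNSC and -4.28 and 37.2 in pNSC, where the lowest detection p was 0.030. The pluripotent lines thus stood in the order pESC-B, piPS-2F, fESC with no overlap of arrays, and the neural lines overlapped each other at background. On the log2 scale the means were 12.34 ± 0.23, 10.69 ± 0.05 and 9.03 ± 0.06 (SD, n = 2) in that order, and those of pNSC and fNSC were 4.88 ± 0.52 and 4.60 ± 0.17.

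Gnas ran the other way between the neural and the pluripotent lines. Among the pluripotent lines its log2 means were highest in pESC-B, as that of Grb10 was. The brighter kept probe (ILMN_2632206) read 4289 and 3695 in fNSC and 6173 and 4836 in pNSC, against 272 and 280 in pESC-B, 205 and 178 in fESC and 87.3 and 82.0 in piPS-2F. The dimmer one (ILMN_1223437) read 1594 and 1585 in fNSC and 1899 and 1707 in pNSC, against 60.8 and 66.9 in pESC-B, 90.5 and 68.3 in fESC and 20.8 and 25.0 in piPS-2F. Both probes put the neural lines far above the pluripotent ones and piPS-2F lowest. In intensity pNSC lay above fNSC at both probes, whereas after normalization the neural lines changed places between the probes. The log2 means of the brighter probe were 11.93 ± 0.25 in pNSC, 11.79 ± 0.03 in fNSC, 8.89 ± 0.16 in pESC-B, 7.83 ± 0.09 in fESC and 7.59 ± 0.09 in piPS-2F (SD, n = 2). Those of the dimmer probe were 10.41 ± 0.14 in fNSC, 10.21 ± 0.11 in pNSC, 7.09 ± 0.21 in pESC-B, 6.68 ± 0.20 in fESC and 6.05 ± 0.13 in piPS-2F. On the intensity scale the dimmer probe was lower in both pESC-B arrays than in both fESC arrays, the reverse of its order after normalization. Over the 10 arrays the log2 signals of the 2 probes correlated at 0.991, a description of 5 pairs of duplicates.

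The other 2 Gnas probes were detected nowhere. ILMN_3056973, annotated to another Gnas transcript, ranged from -10.4 to 3.26 with detection p of 0.307 to 0.897. ILMN_3075080, annotated to a transcript whose identifier has RefSeq's prefix for non-coding RNA, ranged from -12.1 to 2.26 with detection p of 0.315 to 0.898. No level of these transcripts can be given from values at background. Both kept probes are annotated to 1 and the same coding transcript, and no annotation used here ties them to a first exon.

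All 4 H13 probes are annotated to 1 transcript, yet they did not read alike. ILMN_2700292 read 2137 and 1992 in pNSC, 715 and 691 in fNSC, 341 and 314 in pESC-B, 99.1 and 112 in piPS-2F and 78.0 and 105 in fESC. ILMN_2742160 read 1936 and 1753, 590 and 629, 321 and 321, 137 and 106, and 52.5 and 50.3 in the same order. Both were highest in pNSC and lowest in fESC, and only for the former did the piPS-2F and fESC intensities overlap. Another, ILMN_1212794, was dimmer, with 211 and 232 in pNSC, 110 and 116 in fNSC, 69.9 and 66.2 in pESC-B and 32.1 and 32.0 in piPS-2F, and it was undetected in fESC at 19.8 and 17.03 (detection p 0.068 and 0.075). The last, ILMN_2878620, was detected on no array (-7.68 to 6.86).

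After normalization the H13 probes kept fESC lowest. ILMN_2700292 had log2 means of 10.42 ± 0.07 in pNSC, 9.16 ± 0.11 in fNSC, 9.10 ± 0.06 in pESC-B, 7.87 ± 0.10 in piPS-2F and 6.86 ± 0.32 in fESC (SD, n = 2). ILMN_2742160 had 10.25 ± 0.10, 8.96 ± 0.20, 9.07 ± 0.13, 8.03 ± 0.23 and 6.14 ± 0.01, and ILMN_1212794 had 7.15 ± 0.09, 6.63 ± 0.15, 7.17 ± 0.08, 6.45 ± 0.02 and 5.09 ± 0.06 in that order. The arrays of fNSC and pESC-B overlapped at the 2 brighter probes, and those of pNSC and pESC-B at ILMN_1212794. Pairs of H13 probes correlated at 0.876 to 0.975 over the 10 arrays.

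The Ppp1r9a probe (ILMN_2632092) was detected on all 10 arrays. Its intensity was 1113 and 987 in fNSC and 979 and 1084 in pNSC, which overlapped, 344 and 291 in pESC-B, 147 and 129 in piPS-2F and 134 and 121 in fESC, of which the last pair of lines also overlapped. Normalization separated the arrays of all 5 populations, at 9.78 ± 0.03, 9.35 ± 0.13, 9.07 ± 0.01, 8.20 ± 0.11 and 7.29 ± 0.05 (SD, n = 2). The order of these log2 means, fNSC, pNSC, pESC-B, piPS-2F and fESC, is that of the mean intensities too.

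Differences between populations were tested with limma over all 13564 kept probes. The rule for a call was a 2-fold difference or more together with a Benjamini-Hochberg adjusted p under 0.05. Member calls are counted by probe. Probes of the same gene are not independent, so a count of probes is not a count of genes. Differences are log2 values with their SE, from a fit with 5 residual degrees of freedom. Where a probe was undetected on both arrays of a group, its fold is a lower bound. Calls, and all counts and shares of calls, rest on the fitted difference, so the bound of a called probe can lie under 2-fold. For each of those arrays the lowest signal of any detected probe, or the probe's own where that was higher, stood in as its level. The median difference of all kept probes was 0.13 in piPS-2F against fESC and 0.122 in pESC-B against fESC, and at most 0.027 in size in the other 5 pairs.

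**Figure D2:**
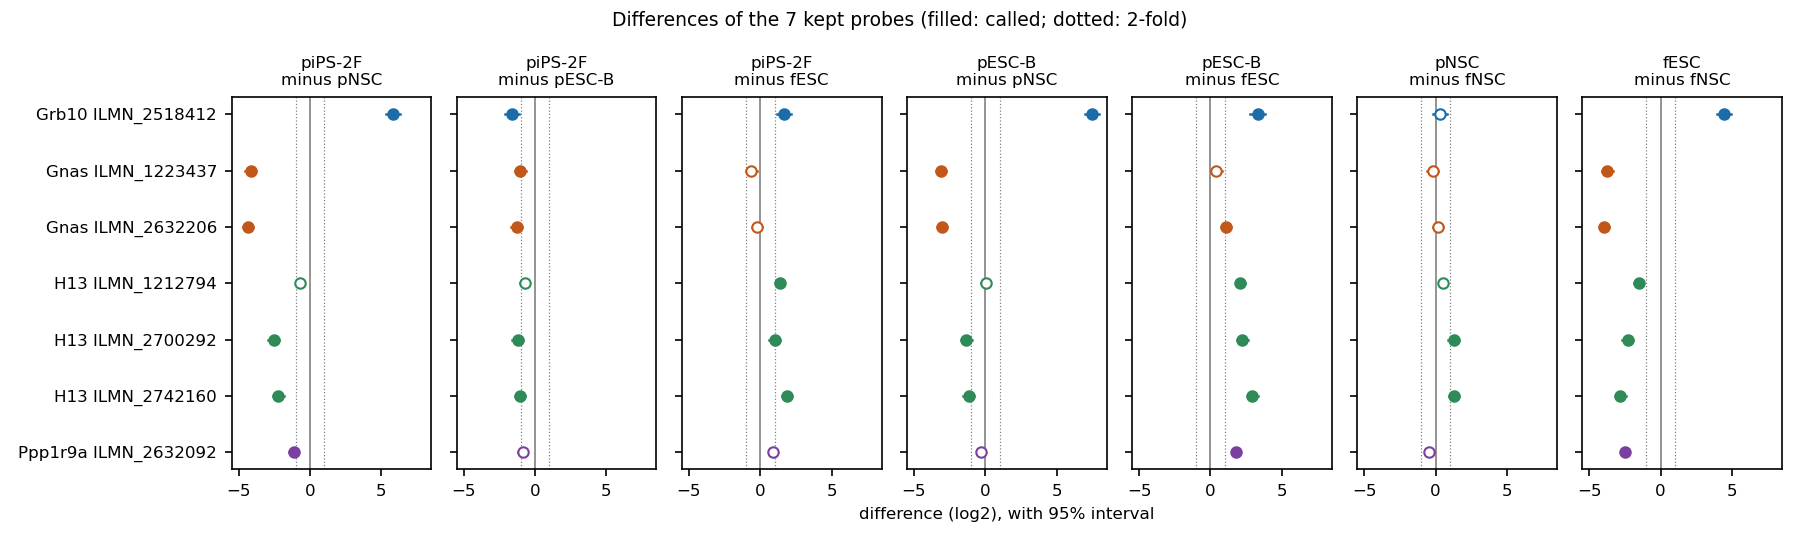
Log2 difference (horizontal axis) with its 95% interval for the 7 kept probes (vertical axis) in each of the 7 pairs of populations. Filled points are called, open points are not, and dotted lines mark 2-fold. The Grb10 points against a neural line, and those of H13 at ILMN_1212794 in panels with fESC, are fitted values, whose bounds are smaller. These H13 points are filled, although against piPS-2F and fNSC the bound is under 2-fold. Grb10 lies right and Gnas left of 0 in the 3 panels that set a pluripotent against a neural line.

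The comparison of piPS-2F with pNSC sets the reprogrammed cells against their type of origin. Grb10 stood at least 36.1-fold above its pNSC background in piPS-2F (adjusted p = 7.42e-09 in limma). Both Gnas probes fell, with differences of -4.34 ± 0.16 (5.25e-09) and -4.16 ± 0.17 (9.59e-09). H13 fell at its brighter probes, with -2.55 ± 0.17 and -2.22 ± 0.16 (largest adjusted p 6.24e-07), while ILMN_1212794 differed by -0.70 ± 0.14 (0.000861), under the 2-fold minimum. Ppp1r9a fell by 1.16 ± 0.13 (1.88e-05). In all 6 of the 7 probes were called, 1 higher and 5 lower, where 52.6% of all kept probes were called, 26.8% higher and 25.7% lower.

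The same members moved the same way between the female lines, on other arrays. Grb10 was at least 12.6-fold higher in fESC than in fNSC (adjusted p = 4.64e-08). Lower in fESC were Gnas, at -3.95 ± 0.16 and -3.73 ± 0.17, the brighter H13 probes, at -2.82 ± 0.16 and -2.30 ± 0.17, and Ppp1r9a, at -2.50 ± 0.13. ILMN_1212794, undetected in fESC, was at least 1.64-fold lower there, a bound under the 2-fold minimum. All 7 probes were called, 1 higher and 6 lower, with a largest adjusted p of 2.84e-06, against a background of 47.1% (23.5% higher, 23.6% lower).

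Between pESC-B and pNSC, which share the parental origin, Grb10 was at least 113-fold higher in pESC-B (adjusted p = 1.53e-09). Gnas was lower, at -3.03 ± 0.16 and -3.12 ± 0.17. H13 was lower at 2 probes, by -1.32 ± 0.17 and -1.17 ± 0.16, but ILMN_1212794 differed by 0.03 ± 0.14 (adjusted p = 0.875) with overlapping arrays, and the mean of the H13 probes was -0.82, under 2-fold. Ppp1r9a differed by -0.29 ± 0.13 (adjusted p = 0.0727). This gave 5 called probes, 1 higher and 4 lower, against 49.8% of all kept probes (25.1% higher, 24.7% lower).

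The comparison of pESC-B with fESC asks how embryonic stem cells with maternal chromosomes only differ from those with both parents. All 4 genes had at least 1 probe that was higher in pESC-B. Grb10 was 9.87-fold higher (3.30 ± 0.23, 95% interval 6.97-fold to 14.0-fold, adjusted p = 1.78e-06) and ranked 14 from the highest of 13564. H13 was higher by 2.93 ± 0.16 and 2.24 ± 0.17, and at least 2.39-fold at the probe undetected in fESC. Ppp1r9a was higher by 1.78 ± 0.13 (adjusted p = 3.45e-06). Gnas was higher by 1.06 ± 0.16 at ILMN_2632206 (0.000288), a call that ended without pESC-B replicate 2 (0.94), without fESC replicate 2 (0.99), with an offset of 50 in the background correction (0.96) and as the mean of the 2 Gnas probes (0.74), and differed by 0.41 ± 0.17 at ILMN_1223437 (0.0567). Thus 6 of 7 probes were called, all 6 higher, where 27.4% of kept probes were called, 13.6% higher and 13.8% lower.

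Between piPS-2F and fESC the gaps ran the same way for 3 genes and were smaller for each of them than in pESC-B. Grb10 was higher in piPS-2F by 1.66 ± 0.23 (adjusted p = 0.000168). H13 was higher by 1.89 ± 0.16 and 1.02 ± 0.17 and, at the probe undetected in fESC, at least 1.45-fold, a bound under the 2-fold minimum. Ppp1r9a differed by 0.91 ± 0.13 (0.000273) and Gnas by -0.25 ± 0.16 (0.215) and -0.63 ± 0.17 (0.00933), all under 2-fold. This left 4 called probes, all higher, in Grb10 and H13, against 24.9% of all kept probes (11.9% higher, 13% lower). The H13 call of 1.02 ended without piPS-2F replicate 2 (0.95), without fESC replicate 1 (0.79), with an offset of 50 (0.84), with median scaling (0.89) and in a fit to the 4 arrays compared (0.99). These pairs share the fESC arrays, and arrays of piPS-2F and pESC-B were both the dimmer ones.

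The direct comparison of piPS-2F with pESC-B joins arrays of like brightness and origin. Every one of the 7 probes lay lower in piPS-2F, with no overlap of arrays, where 62.4% of all kept probes had arrays that did not overlap and 31.1% did so with piPS-2F lower. Called lower were Grb10 by -1.64 ± 0.23 (adjusted p = 0.000562), Gnas by -1.31 ± 0.16 and -1.04 ± 0.17, and H13 by -1.23 ± 0.17 and -1.04 ± 0.16. The H13 probe ILMN_1212794 differed by -0.72 ± 0.14 (0.00345) and Ppp1r9a by -0.87 ± 0.13 (0.00111), both under 2-fold. These 5 calls of 7 lie in 3 genes, and they stand against 9.12% of all kept probes called, 4.47% higher and 4.65% lower. By the mean of a gene's kept probes Grb10 and Gnas (-1.17) were called, and H13 and Ppp1r9a were not. The calls of -1.04 sat at the 2-fold minimum: without pESC-B replicate 2 the Gnas probe differed by -0.90 and the H13 probe by -0.95, leaving 3 calls. The Gnas probe also lost its call without piPS-2F replicate 1 (-0.96), with median scaling (-0.87) and in a fit to the 4 arrays compared (-0.93), and the H13 probe without piPS-2F replicate 2 (-0.88). Both also lost it with an offset of 50 (-0.77 and -0.95), and the mean of the H13 probes was -0.998.

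The neural lines, pNSC and fNSC, differed at H13 and at no other of the 4 genes by the same rule. H13 was higher in pNSC by 1.29 ± 0.16 (2.45-fold, adjusted p = 0.000258) and 1.26 ± 0.17 (2.40-fold, 0.000353), and by 0.52 ± 0.14 at ILMN_1212794 (0.0170), under 2-fold. Gnas differed by 0.14 ± 0.16 (95% interval -0.21 to 0.49, adjusted p = 0.559) and -0.20 ± 0.17 (-0.57 to 0.18, 0.416), intervals that hold no 2-fold change. Ppp1r9a differed by -0.43 ± 0.13 (0.0347), under 2-fold, and Grb10 was undetected in both lines, so no fold is given. The 2 calls of 7 compare with 11% of all kept probes called, 4.79% higher and 6.24% lower.

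Whether the gap between parthenogenetic and female cells differed between embryonic and neural stem cells was tested as the difference of the differences, (pESC-B minus fESC) minus (pNSC minus fNSC), which are read from different arrays. Ppp1r9a gave 2.21 ± 0.19 (adjusted p = 1.94e-05), from 1.78 in the embryonic and -0.43 in the neural lines. H13 gave 1.64 ± 0.23 (0.000344) at ILMN_2742160, and 0.98 ± 0.24 (0.00737) at ILMN_2700292, just under 2-fold. ILMN_1212794 gave 1.57 ± 0.19 (0.000162), but rests on a fESC level below detection and was no longer called with an offset of 50 (0.99). Grb10 gave 3.02 ± 0.32 (6.75e-05), with both neural levels below detection. Gnas gave 0.92 ± 0.22 (0.00785) and 0.61 ± 0.24 (0.0578), neither called. This made 4 called probes, all higher, against 29.7% of all kept probes (14.8% higher).

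**Figure D3:**
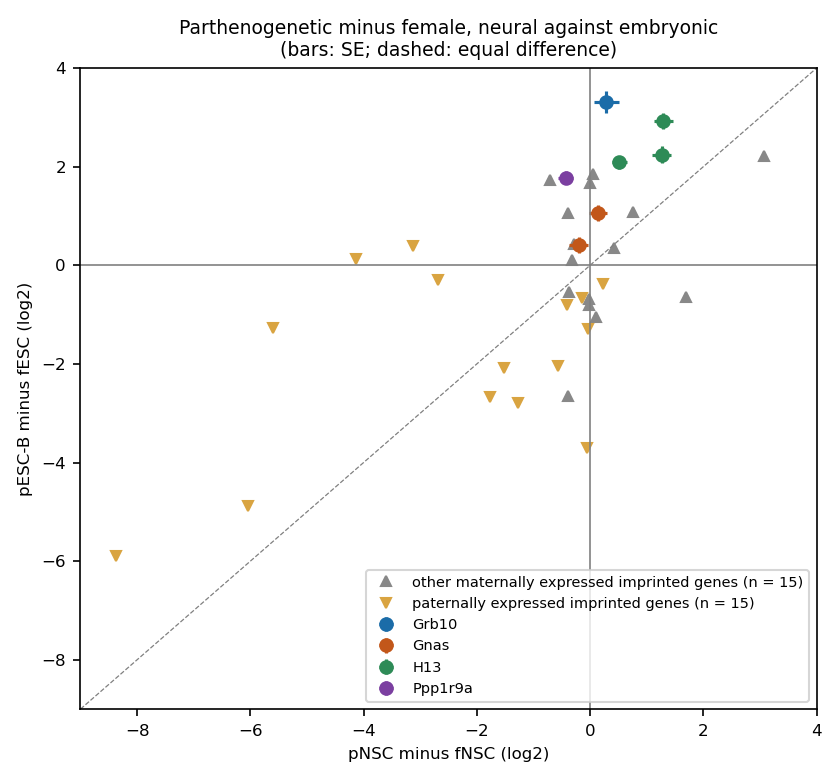
Log2 difference of pESC-B minus fESC (vertical axis) against that of pNSC minus fNSC (horizontal axis) for the 7 kept probes of the 4 genes (circles with SE bars) and for 15 other maternally (upward triangles) and 15 paternally expressed imprinted genes (downward triangles). The dashed line marks equal differences. All 7 circles lie above that line and above 0 on the vertical axis, from 0.41 for a Gnas probe to 3.30 for Grb10.

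The same question for reprogramming, (piPS-2F minus pNSC) minus (fESC minus fNSC), gave 2 called probes, both higher, against a background of 28.5% (13.9% higher). Ppp1r9a gave 1.34 ± 0.19 (adjusted p = 0.000397): it fell by 1.16 from pNSC to piPS-2F and by 2.50 from fNSC to fESC. Grb10 gave 1.37 ± 0.32 (0.00635), with both neural levels below detection, and was not called with the authors' processed values (1.16, adjusted p = 0.231). Gnas gave -0.39 ± 0.22 (0.190) and -0.43 ± 0.24 (0.168), and the H13 probes gave 0.85 ± 0.19 (0.00586), 0.60 ± 0.23 (0.0584) and -0.25 ± 0.24 (0.422).

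Other imprinted genes were read through 1 probe each, the one with the highest mean signal, from lists drawn up with earlier results of these arrays known. The lists further below were read in the same way. The share of all kept probes set beside them also counts dimmer probes of a gene and probes without a symbol, so the 2 sets are not alike. Of 15 other maternally expressed genes tested, 8 were called between pESC-B and fESC, 6 higher and 2 lower. The highest were Cdkn1c, a cell cycle inhibitor, at 2.21 ± 0.20 and Phlda2, a restraint on placental growth, at 1.86 ± 0.14, and the lowest were Ube3a, a ubiquitin ligase, at -2.65 ± 0.21 (-0.563 at another probe) and Ascl2, a trophoblast transcription factor, at -1.04 ± 0.25. That is 53.3% called, beside 27.4% of all kept probes, with a median of 0.36 beside 0.122. Between pNSC and fNSC 2 of 15 were called, both higher, Cdkn1c at 3.08 ± 0.20 and Dhcr7, a cholesterol synthesis enzyme, at 1.69 ± 0.23. That share, 13.3%, is near the 11% of all kept probes called in either direction, while 4.79% were called higher. Between piPS-2F and pESC-B, where 9.12% of kept probes were called, none of the 15 was called by limma, and the median was -0.07. In that fit 6 had an unadjusted and 4 an adjusted p under 0.05, and the largest difference of the 15 was 0.97 in size, under 2-fold.

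Of 15 paternally expressed genes, 9 (60%) were called lower and none higher in pESC-B against fESC, beside 13.8% of all kept probes called lower. In pNSC against fNSC 9 (60%) were likewise called lower and none higher, beside 6.24%, but these were not all the same genes. Some of the neural calls were of genes undetected in pNSC with a bound under 2-fold, the smallest 1.33-fold. In the neural pair Mest was at least 156-fold and Snrpn at least 34.5-fold lower (-1.04 at another Snrpn probe), and in the embryonic pair Mest at least 38.0-fold lower, with Snrpn at -4.89 ± 0.15. The medians were -1.29 in the embryonic pair and -1.52 in the neural pair, or -0.73 with undetected genes set to their bounds. Between piPS-2F and pESC-B 5 of 15 (33.3%, beside 9.12%) were called, all higher, led by Mest, at least 3.94-fold, and Snrpn at 2.07 ± 0.15; other probes of these 2 genes gave as little as 0.778 and 1.22.

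The neighbours of the 4 genes in their imprinted regions did not share 1 direction with them. Of 11 tested, 4 were called between piPS-2F and pNSC (36.4%, below the 52.6% of all kept probes). Beside Grb10, Ddc, which encodes an enzyme of dopamine and serotonin synthesis, was at least 19.1-fold and Cobl, an actin nucleator, at least 9.86-fold higher, as Grb10 was. Near Ppp1r9a, Pon2, a paraoxonase, fell by 3.57 ± 0.17, and Dync1i1, a dynein chain that pNSC lacked at detection level, rose at least 1.61-fold, under the 2-fold minimum as a bound. Between pESC-B and fESC 3 of 11 (27.3%) were called, all lower, beside 27.4% of all kept probes called and 13.8% called lower. They were Ddc at -1.29 ± 0.17, the spindle gene Tpx2 at -1.65 ± 0.18, and Peg10, a paternally expressed retrotransposon-derived gene, at least 4.34-fold. Ddc was thus lower where Grb10 was higher. Between pNSC and fNSC only Peg10 was called, with a bound of 1.33-fold lower, and between piPS-2F and pESC-B Ddc, higher by 1.53 ± 0.17, and Dync1i1, at least 1.61-fold. These shares, 9.09% and 18.2%, stand beside 11% and 9.12% of all kept probes. Cobl, Ddc and Peg10 also stand in the lists of imprinted genes.

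Of 21 tested genes of insulin and IGF signalling, the pathway that Grb10 restrains, 14 were called in piPS-2F against pNSC: 8 were higher and 6 lower. Grb7, an adaptor of the same family as Grb10, was at least 46.3-fold and the growth factor Igf2 at least 30-fold higher, while the binding proteins Igfbp4 and Igfbp3 differed by -5.66 ± 0.20 and -4.71 ± 0.24. Between pESC-B and fESC 11 were called, 9 higher and 2 lower. The 9 include a gene undetected in fESC for which no lower bound could be given. The receptor substrate Irs2 was higher by 2.03 ± 0.24 and the transcription factor Foxo1 by 1.94 ± 0.16, and Igfbp5 and the kinase Pdpk1 were lower, at -2.03 ± 0.42 and -1.0046 ± 0.22, although the other Pdpk1 probe gave -0.235. The median there was 0.89, or 0.30 with undetected genes at their bounds. Between pNSC and fNSC 5 were called, with Igfbp4 at 1.51 ± 0.20 and Mtor at 1.13 ± 0.19 highest and the adaptor Shc1 at -1.10 ± 0.13 and Irs2 at -1.05 ± 0.24 lowest; another Shc1 probe gave -0.164. Between piPS-2F and pESC-B 2 were called. Tsc2, a brake on Mtor, was lower at -1.15 ± 0.15 (-0.678 at another probe). Grb14, a further adaptor of the Grb10 family, was at least 1.33-fold higher, a bound under the 2-fold minimum. The shares called in these 4 pairs were 66.7%, 52.4%, 23.8% and 9.52%, beside 52.6%, 27.4%, 11% and 9.12% of all kept probes, so the last is near the background.

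Among 22 tested genes of Gs and cAMP signalling, the pathway of the Gnas product, 17 were called in piPS-2F against pNSC, of which 3 were higher and 14 lower. The median was -1.19, or -0.72 with undetected genes at their bounds. Some of the 14 were undetected in piPS-2F with bounds of only 1.06-fold to 1.75-fold, so the count and its share rest in part on levels below detection. The adenylyl cyclase genes Adcy8 and Adcy2 were at least 4.34-fold and 4.98-fold lower, while Akap12, a scaffold of protein kinase A, rose by 3.0033 ± 0.17 and the phosphodiesterase Pde4d was at least 3.18-fold higher. Between pNSC and fNSC 2 were called, Adcy2 at 2.33 ± 0.17 and Gng2, a G protein gamma subunit, at least 1.76-fold, both higher. The Gng2 bound is under the 2-fold minimum. Between pESC-B and fESC 4 were called. The protein kinase A subunits Prkar1a and Prkacb were higher, at 1.36 ± 0.14 and 1.15 ± 0.14. The phosphodiesterase Pde8a was lower at -2.03 ± 0.19, as was the subunit Prkar2a, at least 1.82-fold, a bound under the 2-fold minimum. Between piPS-2F and pESC-B, where both Gnas probes were lower, none of the 22 passed limma's adjusted p and 2-fold rule. In that fit 7 had an unadjusted and 4 an adjusted p under 0.05, and the largest difference of the 22 was 0.85 in size. The shares called in these 4 pairs were 77.3%, 9.09%, 18.2% and 0%, beside 52.6%, 11%, 27.4% and 9.12% of all kept probes.

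Of 19 tested genes of signal peptide processing and intramembrane proteolysis, the field of the H13 product, 7 were lower and none higher in piPS-2F than in pNSC, including Aph1b, a gamma-secretase subunit, at least 10.3-fold, and Sec11c, a signal peptidase subunit, at -2.90 ± 0.18. Between pNSC and fNSC, where H13 was higher, 4 were called. Sppl2b, a relative of H13 in the same protease family, was higher at 1.34 ± 0.15, as was Hmox1, a haem-degrading enzyme, at 1.03 ± 0.19, while another relative, Sppl2a, was lower at -1.39 ± 0.18 and the signal peptidase subunit Spcs2 at -1.16 ± 0.24. Between pESC-B and fESC 7 were called, 3 higher and 4 lower, with Rhbdf1, an inactive rhomboid protein, at 2.12 ± 0.14, Sppl2b at 1.57 ± 0.15, Sec11c at -2.65 ± 0.18 and Spcs2 at least 2.06-fold lower. Between piPS-2F and pESC-B 1 was called, Rhbdf1 at -1.07 ± 0.14. The shares called in these 4 pairs were 36.8%, 21.1%, 36.8% and 5.26%, beside 52.6%, 11%, 27.4% and 9.12% of all kept probes. The first and last are below this background of calls in either direction. In piPS-2F against pNSC, however, all calls were lower, and 25.7% of all kept probes were called lower. The list's median there was -0.85 (0.0166 over all kept probes), or -0.66 with undetected genes at their bounds.

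Of 19 tested partners of the Ppp1r9a product in phosphatase and actin control, 14 were called in piPS-2F against pNSC: 6 were higher and 8 lower. The actin cross-linker Actn1 rose by 3.74 ± 0.17 and the cortical protein gene Cttn was at least 5.37-fold higher by its brightest probe, while its other 3 probes gave -0.684 to -0.45. The profilin gene Pfn2 differed by -5.15 ± 0.18, with -1.45 at another probe, and Ppp1r9b, the gene of the close relative spinophilin, by -2.38 ± 0.16. Between pESC-B and fESC, where Ppp1r9a was higher, Ppp1r9b was lower at -1.34 ± 0.16, the phosphatase inhibitor Ppp1r1a was lower at -1.46 ± 0.17, and Tiam1, an activator of Rac, was higher at 1.55 ± 0.14; no other of the 19 was called. Between piPS-2F and pESC-B 1 was called, Ppp1r9b, higher by 1.03 ± 0.16. Between pNSC and fNSC the actin-severing gene Cfl1 was lower at -1.20 ± 0.16. The phosphatase inhibitor Ppp1r1b was at least 1.38-fold lower there, a bound under the 2-fold minimum. The shares called in these 4 pairs were 73.7%, 15.8%, 5.26% and 10.5%, beside 52.6%, 27.4%, 9.12% and 11% of all kept probes, so that only the first lies above the background.

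For each gene's brightest kept probe the 3 genes with the highest Pearson correlation of log2 signal over the 10 arrays were found, among 11348 to 11350 probes. The arrays are 5 pairs of duplicates that differ mainly by population, so these values describe likeness of profile only. Nearest to Grb10 were F11r (0.997), a tight junction adhesion gene, Pgap6 (0.996), and Bend3 (0.995), a repressor that binds chromatin. Nearest to Gnas were Marcks, an actin-regulating substrate of protein kinase C, B4gat1, a glycosyltransferase, and Tmem100, each at 0.997. H13 was nearest to Fut10 (0.987), Ppt2 (0.986), a lysosomal thioesterase, and Gucd1 (0.986), and Ppp1r9a to the sorting receptor gene Sort1 (0.991), the choline kinase gene Chkb (0.987) and Ccser2 (0.984).

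**Figure D4:**
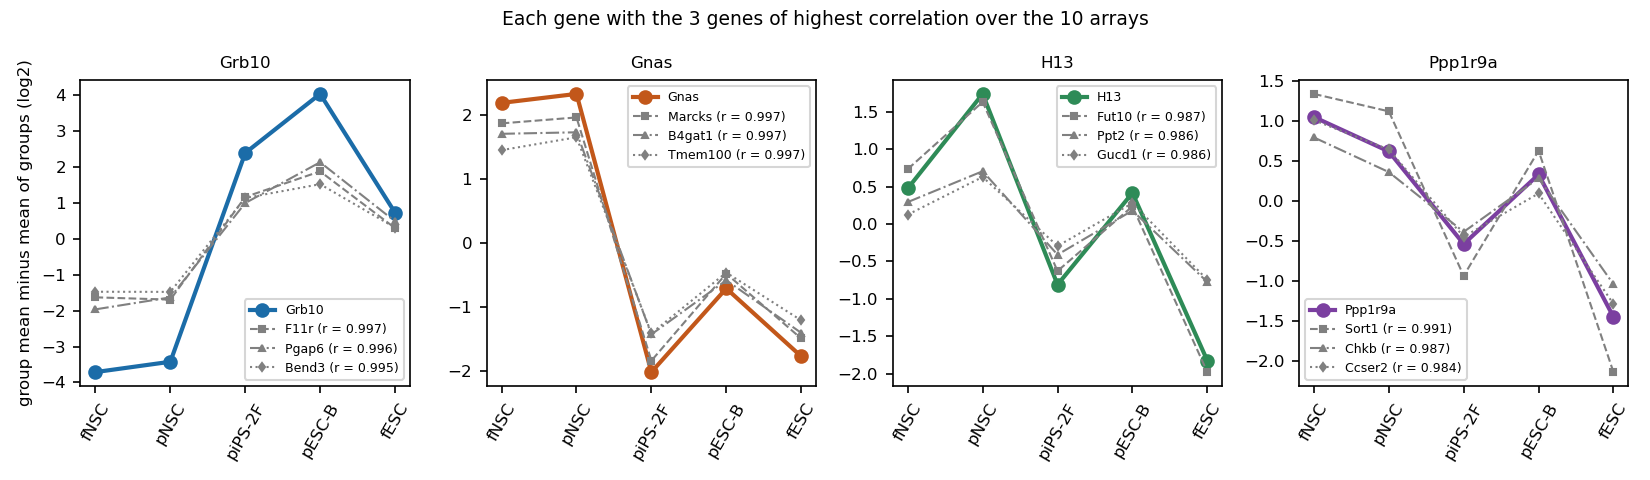
Group mean log2 signal minus the mean of the 5 groups (vertical axis) by cell population (horizontal axis), for each of the 4 genes (coloured) and the 3 genes of highest correlation with it (grey). The Grb10 and Gnas panels run opposite ways between neural and pluripotent lines, and both are highest in pESC-B among the pluripotent ones. H13 and Ppp1r9a share a low point at fESC.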

How the data were processed

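The members and the gene lists were chosen with earlier results of these data known. Groups and replicate numbers came from the sample labels. Per the labels' protocols, total RNA was column-purified with DNA digestion before labelling. The authors deposited a table of probe intensity per array on a linear scale with background subtracted (22.9% to 28.3% of values per array were below 0), and the same deposited table gives a detection p-value per probe and array. Another deposited table gives values processed by the authors, which were read as log2 (range 1.30 to 15.26; the base is not stated) and served as an alternative. The submitters' processing notes list BeadStudio 3.2, RMA and lumi, with no settings. Here limma 3.58.1 (R 4.3.3) was run on the intensities: neqc (normexp with the detection p-values, offset 16, quantile normalization, log2), a filter that kept probes with detection p under 0.01 throughout at least 1 group, lmFit with 1 mean per group over all 10 arrays, eBayes, and Benjamini-Hochberg adjustment over 13564 kept probes. There were 7 pairs and 2 interaction contrasts. The offset shrinks differences of dim probes, and quantile normalization assumes that arrays share 1 distribution. Symbols came from the platform annotation (23978 probes with 1 symbol, 1719 with none), and positions and promoter sequences from RefSeq tables of GRCm38.p6; for the probes themselves no build is stated. The number of arrays limits the precision. The fit was tested on simulated data. The rule for names takes every member probe, and from a list all called genes where there are at most 4. Otherwise it takes the 2 highest and 2 lowest called, or only the 2 largest in size where all called went 1 way. Names are given for 4 of the pairs, but not for piPS-2F against pNSC in the lists of other maternally and of paternally expressed genes. Likeness was ranked among probes whose log2 signal spanned at least 1, without clone-type symbols. Alternatives were another offset, no background correction, median scaling, other detection filters, the authors' values, a replicate block, a fit to the compared arrays alone, the mean of a gene's kept probes, and leaving out each array.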

Additional observations from a re-analysis of the deposited data

Results flagged for a closer look

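The test of whether the difference between parthenogenetic and female cells is the same in embryonic as in neural stem cells called 4 probes, 2 of them from levels that were detected in every line. The values, (pESC-B minus fESC) minus (pNSC minus fNSC), were 3.02 for Grb10, 2.21 for Ppp1r9a, 1.64 for H13 at ILMN_2742160 and 1.57 for H13 at ILMN_1212794. Grb10 was undetected in both neural lines and ILMN_1212794 in fESC, so these 2 values rest in part on levels below detection and do not measure a difference between the gaps. The latter was also no longer called with an offset of 50 (0.99). For the same reason the Grb10 value is close to the embryonic difference alone, 3.30.

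The test of whether the difference between pluripotent and neural cells is the same for piPS-2F and pNSC as for fESC and fNSC called 2 probes. The values, (piPS-2F minus pNSC) minus (fESC minus fNSC), were 1.37 for Grb10 and 1.34 for Ppp1r9a. Grb10 again had undetected neural levels and was not called with the authors' processed values (1.16, adjusted p = 0.231 in limma). Ppp1r9a was detected on all 10 arrays, but its intensities overlapped between piPS-2F and fESC and between pNSC and fNSC before normalization. Both contrasts set the dimmer arrays of piPS-2F or pESC-B against the brighter fESC arrays, and brightness and population cannot be told apart there.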

How the results depend on the processing

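Of 1179 recomputed member differences, 1128 kept their direction and their side of the threshold, 25 lost a call, 18 gained one and 8 changed sign. The 1128 include all 63 results under the replicate block and under each of the other detection filters. Those settings leave the differences themselves unchanged by construction, and only the spread and adjusted p could move. An offset of 50 in place of 16 left 3 member probes called between piPS-2F and pESC-B (5 as reported) and 2 between piPS-2F and fESC (4 as reported). Over all kept probes it left 660 of 1237 calls in the first pair, 2242 of 3375 in the second and 933 of 1497 between pNSC and fNSC. A larger offset shrinks differences of dim probes by construction. Leaving out 1 array gave 3 to 5 calls between piPS-2F and pESC-B, with 3 without pESC-B replicate 2, then 3 to 4 between piPS-2F and fESC, 5 to 6 between pESC-B and fESC and 4 to 6 in the embryonic against neural contrast; the other counts did not move. The Grb10 call in the reprogramming contrast ended with the authors' values (1.16, adjusted p = 0.231 in limma), and Ppp1r9a between piPS-2F and fESC was called without background correction (1.01) and with the authors' values (1.05). The cause was not tested.

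Sign changes were all of differences that were not called. H13 at ILMN_1212794 between pESC-B and pNSC gave -0.1455 with median scaling, -0.03729 to 0.08767 with 1 array left out and -0.82 as the mean of the H13 probes. Grb10 between pNSC and fNSC gave -0.07626 to 0.6241 with 1 array left out. Gnas at ILMN_2632206 in that pair gave -0.03715 to 0.3222 with 1 array left out and -0.02926 as the mean of its probes, and H13 at ILMN_2700292 gave 0.40 in the reprogramming contrast as the mean of its probes. Median scaling moved the median of all probes in piPS-2F against pNSC to 0.213, and 59 of 63 member results kept their call and sign under it.

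The replicate numbers did not pair the arrays: deviations of same-numbered arrays correlated at -0.104 to 0.0986 over 10 pairs of groups, none over 0.1. With a replicate block 63 of 63 member results kept their call, with Grb10 at 3.30 (adjusted p = 5.42e-06) between pESC-B and fESC. Levels near background limit the Grb10 values in the neural lines, H13 at ILMN_1212794 in fESC, and the 3 probes detected nowhere.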
